A study of Mus musculus with 18 samples.

Results

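DNA transposon subfamilies were described in C57BL/6 mice, in a thigh muscle, the rectus femoris. The members were the subfamilies whose class label in the deposited table was DNA, the class of elements that are not copied by reverse transcription. They were 197 of the 1146 transposable-element subfamilies, in a table of 25604 rows that otherwise held genes. A further 21 subfamilies whose class was given with a question mark were not counted as members. Poly(A) RNA, treated with DNase, was sequenced from 18 libraries in 3 arms of 6, each with 3 females and 3 males. The old 3TC mice were 19 months old and had received 3TC at 2 mg per mL in their drinking water for 6 weeks. The old untreated mice were 19 months old and the young untreated mice 8 months old. 3TC, also called lamivudine, is a nucleoside analogue that blocks reverse transcriptase. The arms set old 3TC against old untreated muscle, old untreated against young untreated muscle, and old 3TC against young untreated muscle, so that all 3 comparisons share libraries with each other.

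DNA transposons move by a cut-and-paste reaction: a transposase binds the inverted repeats at the element's ends, excises it and inserts it elsewhere, with no RNA intermediate. In rodents and other mammals the class is known mainly as fossil copies of the hAT and Tc1/mariner lineages, many of them short derivatives that encode no protein, such as the MER elements. LINEs and LTR elements, in contrast, encode their own reverse transcriptase, and SINEs borrow that of LINEs. Copies of all classes lie within introns and untranslated regions, so reads assigned to a subfamily can belong to a gene's transcript or to the element's own. The deposited table gives 1 value per subfamily over all its copies, and which of these the reads came from was not tested.

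Most of the DNA transposon reads came from subfamilies of the hAT lineage. The members carry 13 superfamily names, and hAT-Charlie, with 73 members, took a median of 68.4% of the DNA transposon counts over the 18 libraries, with a lowest value of 64.7% and a highest of 75.2%. TcMar-Tigger, with 44 members, took a median of 17.4%, between 13.2% and 20.2%. The 31 hAT-Tip100 members took a median of 6.74%, the 8 hAT-Blackjack members 3.63% and the 8 TcMar-Tc2 members 1.32%. The 10 members with the highest counts held 50.1% of the DNA transposon counts. They were URR1B with 10.05%, URR1A with 8.24%, MER113 with 6.61%, MER5A with 4.72%, MER20 with 4.13%, MER2 with 3.73%, MER5B with 3.49%, RCHARR1 with 3.43%, Arthur1C with 3.06% and Charlie8 with 2.66%. MER2 is a Tigger derivative and Arthur1C a hAT-Tip100 element, and the other 8 belong to hAT-Charlie. These are shares of reads and were not corrected for copy number or length, so they give no order of transcription per copy.

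Of the 197 members, 166 had a mean of at least 10 normalised counts over the 18 libraries and were tested, 26 lay below that mean and 5 were at 0 in every library. The 5 were MARINER1_EC, MER136, MamRep1161, Tigger1a_Mars and nhAT5a_ML, and a count of 0 allows up to 3 reads in a library, for counting error only. MER97a lay just inside the filter with a mean of 10.1, and Charlie17a just outside with 9.83. Only in the TcMar-Pogo superfamily was no member tested: its single member, MER132, was at 0 in 15 of the 18 libraries. The depth was 64.2 M to 85.4 M reads per library, with every library scaled to 74.0 M.

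DNA transposon subfamilies took less than 0.1% of the counts in 16 of the 18 libraries. In old 3TC muscle they averaged 0.0621% ± 0.00569 of all counts, in old untreated muscle 0.0718% ± 0.00977, and in young untreated muscle 0.101% ± 0.0664 (SD, n = 6 each). The lowest and highest libraries were 0.0538% and 0.0685% in old 3TC muscle, 0.0633% and 0.0887% in old untreated muscle, and 0.0507% and 0.226% in young untreated muscle. The ranges of all 3 arms overlapped, and the wide young range came from 2 libraries, young females 1 and 3. Without them the young mean was 0.0640% ± 0.0120 (SD, n = 4), which lies between the means of the old arms. In bulk muscle, fewer cells of a type and less RNA per cell cannot be told apart.

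**Figure D1:**
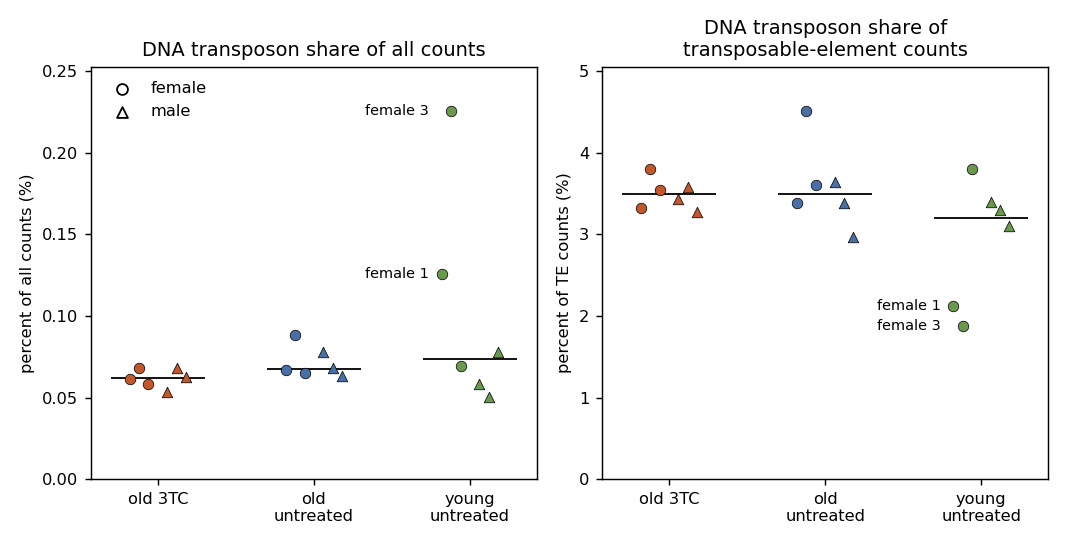
Share of counts in DNA transposon subfamilies in each of the 18 libraries, as a percent of all counts (left) and of transposable-element (TE) counts (right), by arm; circles are females, triangles males and lines arm medians. Young females 1 and 3 hold 0.126% and 0.226% of all counts, against 0.0507 to 0.0887% in the other 16 libraries, and 2.12% and 1.87% of transposable-element counts, against 2.97 to 4.51%.

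Young females 1 and 3 stood apart from the other 16 libraries in LINE, SINE, LTR and DNA transposon counts, with the smallest ratios for DNA transposons. DNA transposon counts were 1.90 times the median of the other 16 libraries in young female 1 and 3.41 times in young female 3. LINE counts were 4.23 and 9.02 times their median in these libraries, SINE counts 3.50 and 7.23 times, and LTR counts 2.01 and 3.62 times. All transposable elements together took 5.92% of the counts in young female 1 and 12.04% in young female 3, against 1.54 to 2.51% elsewhere. The DNA transposon share of transposable-element counts was lower in these libraries, at 2.12% and 1.87%, than in any of the others, where it ran from 2.97 to 4.51%. Olfactory and vomeronasal receptor genes summed to 898 normalised counts in young female 1 and 1523 in young female 3 over 1456 rows, against 407 to 837 in the others. Whether these counts are linked to the transposable-element values was not tested. Mean log2 levels of the adipocyte list were 9.57 and 9.09 in young females 1 and 3, lower than in any other library, and that of the macrophage list in young female 3, at 8.04, was the lowest of the 18. Their part in these differences was not tested either.

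Among the members, the elevation in young females 1 and 3 was broad but uneven. Set against the median of the other 16 libraries on the count plus 1 scale, the 166 tested members had a median ratio of 2.34 in young female 1 (0.303 to 28.3) and 4.91 in young female 3 (0.575 to 75.1). The ratio exceeded 1 for 162 members in young female 1 and 164 in young female 3. Young female 3 held the highest value of all 18 libraries for 155 of the 166 members. For 14 of the 166, the mean over the other 16 libraries was under 10, so they passed the filter only because these libraries were high, and their ratios had to be large. Over the other 152 the median ratio was 2.15 in young female 1 and 4.57 in young female 3. Among those 152, the 54 members with a median under 50 counts in the other libraries had a median ratio of 2.83 in young female 1 and 7.15 in young female 3. For the 74 members between 50 and 500 counts it was 2.15 and 4.38, and for the 24 members at 500 or more it was 1.71 and 2.81. Both libraries lay above all of the other 16 for 132 of the 166 members. The shares of all features with these orders were not counted, so neither count can be called particular to DNA transposons. The excess over the median in one correlated with that in the other with a Pearson r of 0.97 across the 166 members, a description over members that share these libraries. The excess in young female 1 was a median of 0.365 times that in young female 3.

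The superfamilies differed in this elevation. Summed hAT-Blackjack counts were 1.65 and 2.89 times the median of the other libraries in young females 1 and 3, hAT-Tip100 counts 1.75 and 3.15 times, and hAT-Charlie counts 1.88 and 3.27 times. TcMar-Tigger counts were 2.17 and 4.15 times, TcMar-Mariner counts 2.28 and 4.35 times and MULE-MuDR counts 3.32 and 6.43 times. The TcMar group that carries no finer name was highest, at 7.23 and 16.1 times, and MER121 is its most counted member. MER121, a very old repeat that many mammals share, had 511 and 1105 normalised counts in young females 1 and 3, against 19.6 to 140 in the other 16 libraries. Charlie29a, ORSL-2b and Cheshire, a hAT-Charlie element, were likewise 5.28 to 7.22 times their medians in young female 1 and 11.6 to 13.9 times in young female 3. A few members stayed near the other libraries. Tigger12 was at 0.954 and 0.945 times its median in young females 1 and 3, MER63B at 1.11 and 1.23 times, MER113 at 1.14 and 1.31 times and Arthur1C at 1.08 and 1.36 times.

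**Figure D2:**
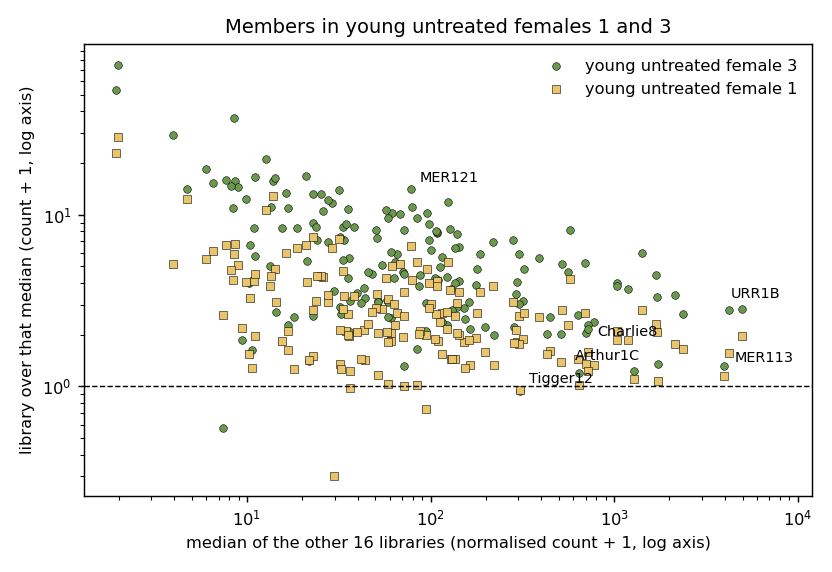
Each tested DNA transposon subfamily in young untreated females 1 (squares) and 3 (circles): its value over its median in the other 16 libraries (count + 1, log axis) against that median (log axis); the dashed line marks a ratio of 1. The median ratio in young female 3 is 4.38 for members between 50 and 500 counts and 2.81 for those at 500 or more, with MER113, Arthur1C and Tigger12 close to the line.

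The comparison of old 3TC with old untreated muscle sets an inhibitor of reverse transcriptase beside elements that do not use that enzyme. No DNA transposon subfamily passed the test. limma called 0 of 166 members at an adjusted p under 0.05, and 0.0% of the 17028 genes and elements tested. edgeR and DESeq2 on the recovered reads also called 0 members, and 0.0% of all features. At an unadjusted p under 0.05, 3 members were lower and 0 higher, against 9.44% of all features in either direction. With young females 1 and 3 out of the estimate of the spread, 13 were lower and 0 higher, against 10.7% of all features. The median log2 change of the members was -0.19, beside -0.16 for all features, -0.24 for LINEs, -0.19 for SINEs and -0.20 for LTR elements, and 30 of the 166 members lay above 0. Median-of-ratios scaling moved the median of all features to -0.02 and that of the members to -0.06, so the members followed the bulk of features under both. Superfamily medians ran close together, at -0.19 for hAT-Charlie, -0.23 for TcMar-Tigger, -0.23 for hAT-Tip100, -0.22 for hAT-Blackjack and -0.15 for TcMar-Tc2.

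The 5 members with the smallest p in this comparison were Charlie17b, Charlie15a, Tigger12, Charlie8 and MER99. Charlie15a, a hAT-Charlie element, had 25.1, 45.5, 37.2, 15.9, 23.0 and 38.9 normalised counts in old 3TC muscle, against 48.1, 77.7, 61.5, 61.0, 48.5 and 61.0 in old untreated muscle. These groups did not overlap, as was so for 0.388% of all features tested, and Charlie15a was the single member of which it was so. Its log2 change was -0.99 ± 0.42 (SE, limma adjusted p = 0.519). Young untreated muscle spanned both, with 21.9 to 65.3 counts in 4 libraries and 128 and 214 in young females 1 and 3. Tigger12, a Tigger element of the mariner lineage, had 298, 260, 252, 326, 289 and 282 counts in old 3TC muscle, against 329, 350, 396, 318, 310 and 342 in old untreated muscle. A single 3TC library, old 3TC male 1 at 326, reached into the old untreated range, and the log2 change was -0.26 ± 0.12 (SE, limma adjusted p = 0.522). MER99 had 51.6 to 98.6 counts in old 3TC muscle, against 70.6 to 132 in old untreated muscle, and a log2 change of -0.32 ± 0.20 (SE, limma adjusted p = 0.561).

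Among the old 3TC and old untreated libraries, Charlie8 and Charlie17b were both highest in old untreated female 2. Charlie8 had 486, 684, 514, 594, 848 and 550 normalised counts in old 3TC muscle, against 962, 14996, 719, 843, 748 and 556 in old untreated muscle, and 554 to 1447 in young untreated muscle. The 14996 counts of old untreated female 2 were 15.6 times the next highest of the 16 libraries other than young females 1 and 3, and they made up 22.8% of the DNA transposon counts of that library. Without Charlie8, its DNA transposon share was 0.0684% of all counts in place of 0.0887%. Charlie17b had 0 to 15.2 counts in old 3TC muscle, against 114 in old untreated female 2 and 13.7 to 22.9 in the other old untreated libraries. In young untreated muscle it had 128 counts in young female 3, the highest of the 18 libraries, and 4.13 to 38.1 in the others. The log2 changes were -1.04 ± 0.55 for Charlie8 (SE, limma adjusted p = 0.541) and -1.94 ± 0.75 for Charlie17b (SE, limma adjusted p = 0.519), and without old untreated female 2 they were -0.34 ± 0.21 and -1.56 ± 0.77 (SE). Gtf2ird2, a gene with a domain derived from a Charlie8 transposase, had 528 counts in old untreated female 2. The adipocyte list had its highest level there, a mean log2 of 13.8, with 12.4 in the next library, old 3TC male 5, where Charlie8 had 550 counts. Its part in the Charlie8 value was not tested.

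The most counted members overlapped between old 3TC and old untreated muscle. URR1B had 4729, 4909, 4969, 4474, 5542 and 4958 normalised counts in old 3TC muscle, against 5519, 4792, 4901, 5845, 5787 and 5040 in old untreated muscle. The log2 change of URR1B was -0.11 ± 0.21 and that of its relative URR1A -0.18 ± 0.21 (SE). MER113 had 2753, 5099, 2738, 2736, 4484 and 3617 counts in old 3TC muscle, against 1893, 4357, 4275, 4503, 3224 and 2673 in old untreated muscle, a log2 change of 0.05 ± 0.24 (SE). MER113 and Arthur1C varied among the libraries of each arm by more than the arm means differed. MER5A had 1996 to 2364 counts in 5 old 3TC libraries and 4174 in old 3TC female 8, against 2249 to 2769 in old untreated muscle.

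**Figure D3:**
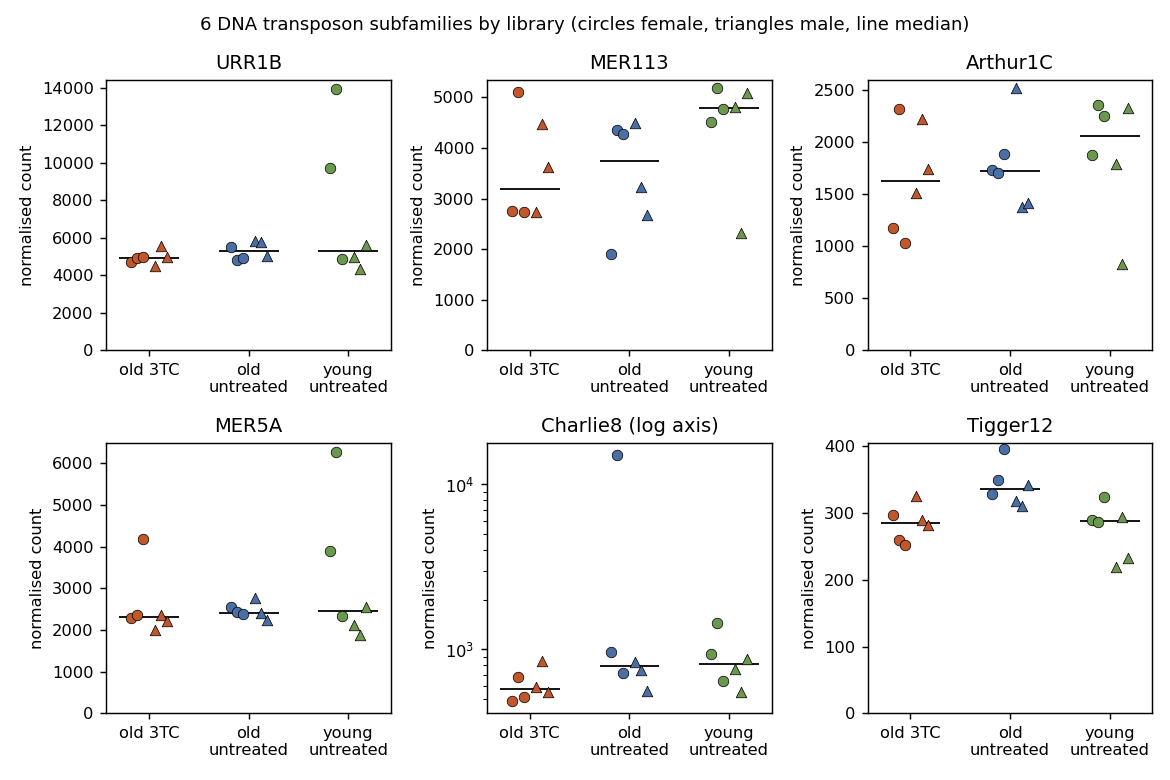
Normalised counts of 6 DNA transposon subfamilies in each library by arm; circles are females, triangles males, lines arm medians, and the Charlie8 panel has a log axis. URR1B and MER5A are raised in young females 1 and 3, Charlie8 reaches 14996 in old untreated female 2, and Tigger12 is at 310 to 396 in old untreated muscle.

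Between old untreated and young untreated muscle the members' direction depended on young females 1 and 3. With all 18 libraries, limma called 0 of 166 members, against 0.27% of all features. edgeR called 0 members, against 0.0117% of all features, and DESeq2 called 3, against 1.76%. At an unadjusted p under 0.05, 11 members were lower and 1 higher in old untreated muscle, against 21.0% of all features in either direction. The members' median log2 change was -0.42, beside 0.15 for all features, -0.77 for LINEs, -0.46 for SINEs and -0.47 for LTR elements, and 19 members lay above 0. No member had arms that did not overlap, against 0.987% of all features. Scaled to the transposable-element total in place of all counts, the members' median was 0.21, beside 0.77 for all features. With young females 1 and 3 left out, limma again called 0 members, against 0.0117% of all features, and 11 members were higher and 0 lower at an unadjusted p under 0.05, against 11.5% of all features. The members' median was then 0.20, beside 0.14 for all features, 0.18 for LINEs, 0.15 for SINEs and 0.15 for LTR elements, and 125 members lay above 0. Of the 166 members, 14 averaged under 10 counts over those 16 libraries and so had passed the filter through young females 1 and 3 alone. In the same comparison with all 18 libraries, all 10 macrophage markers lay above 0, with a median log2 change of 1.15, and DESeq2 called 5 of them while limma called 0. All 9 adipocyte markers lay above 0 with a median of 1.39, and 16 of 17 liver markers below 0 with a median of -3.72; limma, edgeR and DESeq2 called 0 of either list, and 5 of each had an unadjusted p under 0.05 in limma. The part of these lists in the members' values was not tested.

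The members DESeq2 called between old untreated and young untreated muscle were Tigger20a, MER97a and MER63D, all lower in old untreated muscle. MER97a averaged 2.22 counts over the 16 libraries other than young females 1 and 3 and passed the filter through those 2 alone, so its difference is no independent result. MER63D, a hAT-Blackjack element, had 118, 62.4, 65.3, 83.8, 77.1 and 53.4 normalised counts in old untreated muscle, against 328, 881, 78.5, 85.4, 74.9 and 116 in young untreated muscle. Tigger20a had 12.7 to 38.2 counts in old untreated muscle, against 92.9 and 381 in young females 1 and 3 and 25.4 to 76.2 in the other young libraries. MER97a had 0.867 to 5.01 counts in old untreated muscle, against 43.6 and 103 in young females 1 and 3 and 0 to 7.82 in the others. In each case the 2 highest of the 18 libraries were young females 1 and 3, and the other young libraries overlapped the old untreated ones. DESeq2 gave adjusted p-values of 0.0352 for Tigger20a, 0.0276 for MER97a and 0.0445 for MER63D. limma gave log2 changes of -1.47 ± 0.53 (SE, adjusted p = 0.140) for Tigger20a, -2.06 ± 0.88 (SE, adjusted p = 0.197) for MER97a and -1.10 ± 0.47 (SE, adjusted p = 0.198) for MER63D. Arthur1A had a log2 change of -1.65 ± 0.61 (SE, limma adjusted p = 0.151), with 4.66 to 41.0 counts in old untreated muscle and 67.6 and 233 in young females 1 and 3.

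Tigger12 was the 1 member that was higher in old untreated muscle at an unadjusted p under 0.05 with all 18 libraries. It averaged 341 ± 30.8 normalised counts in old untreated muscle, against 275 ± 40.2 in young untreated muscle (SD, n = 6 each), where the libraries had 290, 287, 324, 219, 294 and 233. Young female 8, at 324, was the single young library within the old untreated range of 310 to 396. The log2 change was 0.32 ± 0.12 (SE, limma adjusted p = 0.143) with all libraries and 0.34 ± 0.14 (SE, limma adjusted p = 0.371) without young females 1 and 3. Old 3TC muscle averaged 285 ± 26.9 counts (SD, n = 6), so that Tigger12 had its highest mean in old untreated muscle. Both of its comparisons use the same old untreated libraries, and neither passed the threshold.

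The most counted members repeated the dependence on young females 1 and 3. RCHARR1, a hAT-Charlie element, had 1530, 1361, 1575, 1735, 1799 and 1804 normalised counts in old untreated muscle, against 3967, 8506, 1491, 1154, 1186 and 1823 in young untreated muscle. Its log2 change was -0.46 ± 0.34 (SE) with all libraries and 0.24 ± 0.14 (SE) without young females 1 and 3. For URR1B the values were -0.31 ± 0.21 and 0.13 ± 0.09, for URR1A -0.22 ± 0.21 and 0.15 ± 0.13, and for MER5A -0.23 ± 0.21 and 0.11 ± 0.16 (SE). In the 16 libraries the largest changes among members with the smallest p were in Charlie7a, at 2.19 ± 0.77 (SE, limma adjusted p = 0.331), and ORSL-2b, at 1.32 ± 0.47 (SE, limma adjusted p = 0.331). Charlie7a is a low-count member, with 5.20 to 20.03 counts in old untreated muscle, against 0 to 8.07 in the 4 other young libraries. Zaphod, a hAT-Tip100 element named after its values were seen, was the 1 member whose old untreated libraries, at 111 to 146 counts, all lay above those 4 young libraries, at 67.4 to 110. The same held for 1.66% of all features in either direction.

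**Figure D4:**
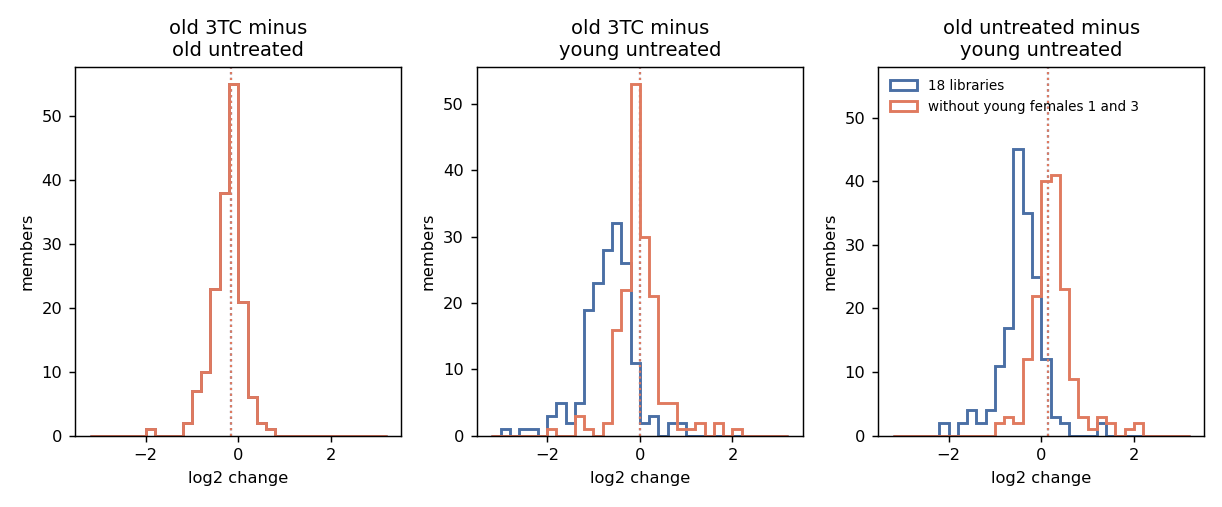
Histograms of the log2 changes of the 166 tested DNA transposon subfamilies in the 3 comparisons, with all 18 libraries and without young females 1 and 3; dotted lines are the medians of all features tested. The outlines coincide for old 3TC against old untreated muscle, which holds no young library, while the median for old untreated against young untreated muscle is -0.42 with all libraries and 0.20 without the 2 young females.

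Old 3TC muscle set against young untreated muscle showed the same dependence. limma called 0 of 166 members, against 0.0117% of all features. edgeR called 0 members, also against 0.0117% of all features, and DESeq2 12, against 1.93%. At an unadjusted p under 0.05, 52 members were lower and 0 higher in old 3TC muscle, against 10.9% of all features. The members' median log2 change was -0.63, beside 0.02 for all features. Without young females 1 and 3 it was -0.06, beside -0.00 for all features, and 2 members were higher and 0 lower at an unadjusted p under 0.05, against 6.16% of all features. When counts were scaled to the transposable-element total, the members' median was 0.16, beside 0.81 for all features. MER121 was among the 12, with 37.0 to 95.4 normalised counts in old 3TC muscle, against 511 and 1105 in young females 1 and 3 and 19.6 to 130 in the other young libraries. Charlie15a, Arthur1A and MER47B were among the 12 too, at DESeq2 adjusted p-values of 0.0499, 0.0336 and 0.0231. MER97a was also among the 12. It averaged 2.22 counts over the other 16 libraries and passed the filter through young females 1 and 3 alone, so its call is no independent result. The 166 tested members include 14 that passed the filter in this way.

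In females, whose young arm holds the 2 high libraries, limma called 0 members between old untreated and young untreated muscle, against 0.0176% of all features. At an unadjusted p under 0.05, 86 members were lower and 0 higher, against 19.0% of all features, and the members' median log2 change was -1.09, beside 0.17 for all features. edgeR called 21 members, against 2.07% of all features, and DESeq2 79, against 5.73%. The tested members behind these counts include 14 that passed the filter through young females 1 and 3 alone. For those 14 the difference is no independent result. With young females 1 and 3 left out, 1 young female remained: limma called 0 members, 6 members were higher and 0 lower at an unadjusted p under 0.05, against 3.8% of all features, and the median was 0.05, beside 0.07 for all features. Scaling to the transposable-element total turned the median over all females to 0.30, beside 1.56 for all features. MER47B, a Tigger derivative with the smallest p here, had 68.1, 60.6 and 40.1 normalised counts in old untreated females, against 353, 685 and 88.8 in young untreated females. Its log2 change was -2.32 ± 0.54 (SE, limma adjusted p = 0.156).

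In males, no library stood as far apart as young females 1 and 3, but the young males were uneven. Young male 8 had 0.0779% of its counts in DNA transposons, against 0.0582% and 0.0507% in young males 1 and 2. Its transposable-element share, 2.51%, was the highest of the 16 other libraries. The members' median log2 change between old untreated and young untreated males was 0.22, beside 0.15 for all features. Leaving out 1 library gave medians of 0.08 to 0.43. limma, edgeR and DESeq2 each called 0 of 166 members, against 0.00587% of all features for limma, 0.00587% for edgeR and 1.03% for DESeq2. Of the members, 125 lay above 0. At an unadjusted p under 0.05, 7 members were higher and 0 lower in old untreated males, against 9.1% of all features. Tigger12 was among them, with 318, 310 and 342 normalised counts in old untreated males, against 219, 294 and 233 in young untreated males. Its log2 change was 0.39 ± 0.16 (SE, limma adjusted p = 0.514). Charlie29a had 50.1, 22.5 and 39.1 counts in old untreated males, against 3.02, 2.31 and 39.1 in young untreated males, a log2 change of 2.17 ± 0.90 (SE, limma adjusted p = 0.514). The age change in females minus that in males again took in the 14 members that passed the filter through young females 1 and 3 alone. It had a median of -1.33 over the members, beside 0.01 for all features. Scaled to the transposable-element total, it had a median of 0.21, beside 1.56. limma called 0 members for it, with 66 lower at an unadjusted p under 0.05, against 7.39% of all features. edgeR called 0 members, against 0.0% of all features, and DESeq2 17, against 2.7%. Without young females 1 and 3, which leaves 1 young female, the median was -0.18.

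Between old 3TC and old untreated muscle the members' median was -0.16 in females, beside -0.19 for all features, and -0.26 in males, beside -0.11. Median-of-ratios scaling gave 0.01 in females, beside -0.02 for all features, and -0.15 in males, beside -0.00. Quantile normalisation gave 0.10 in females, beside 0.01, and -0.12 in males, beside -0.01, so the sign in females depended on the scaling. limma, edgeR and DESeq2 each called 0 members in either sex and 0 for the difference between the sexes. Of all features, limma and edgeR called 0.0% in each of these, and DESeq2 0.153% in females, 0.875% in males and 0.423% for the difference. limma with array weights called 22 members in males, 19 lower and 3 higher, against 16.4% of all features. At an unadjusted p under 0.05 in limma, 2 members were lower in females, against 7.46% of all features, 0 passed in males, against 3.39%, and 0 for the difference, against 2.72%. Without young females 1 and 3, which changes only the estimate of the spread here, the counts were 4, 5 and 1, against 7.38%, 4.08% and 2.74% of all features.

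**Figure D5:**
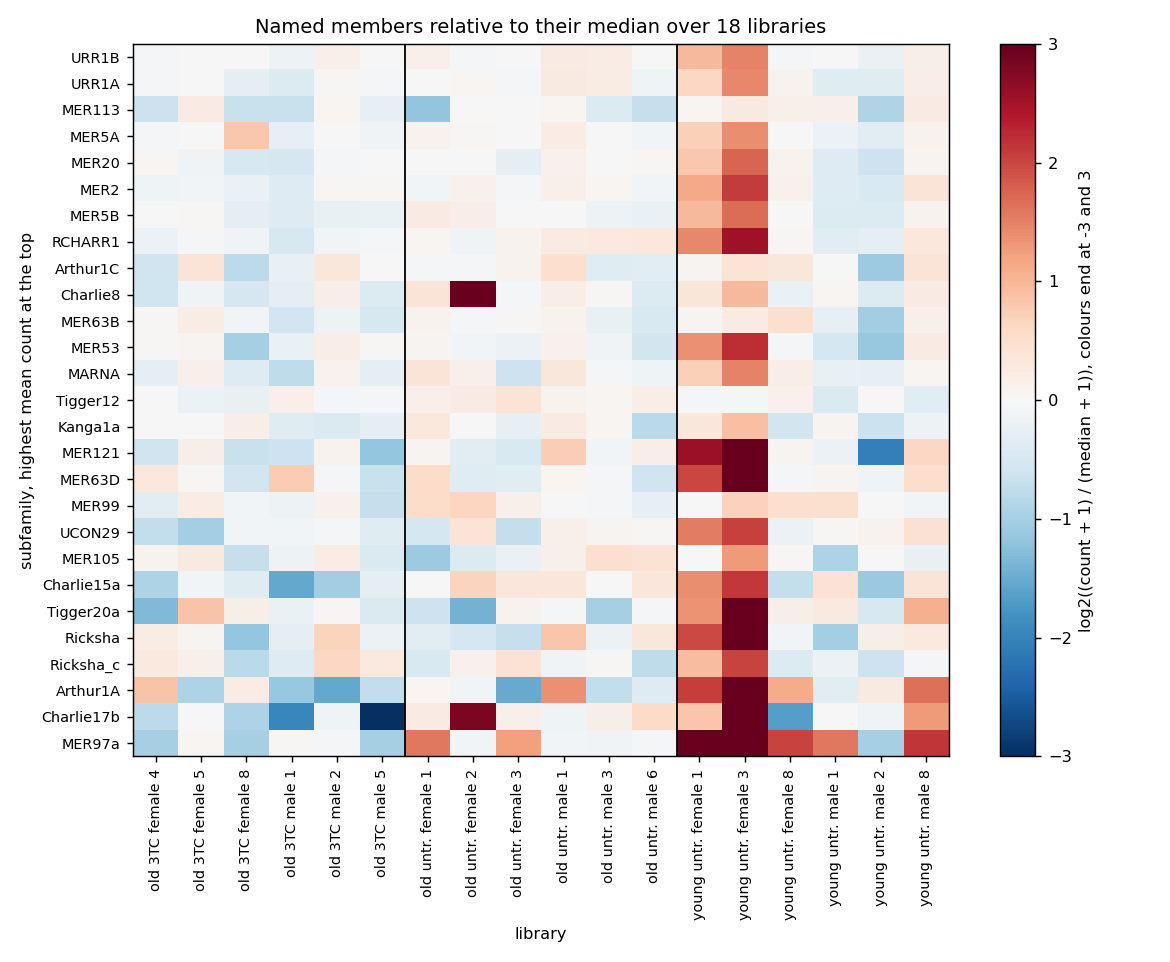
Named DNA transposon subfamilies (down, highest mean count at the top) in the 18 libraries (across, by arm; untr., untreated), as log2 of the count + 1 over the subfamily's median + 1, with colours ending at -3 and 3. Young females 1 and 3 are raised for most subfamilies, old untreated female 2 for Charlie8 and Charlie17b, and MER113, Arthur1C and Tigger12 stay near their medians in young females 1 and 3.

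The mouse genome also holds single genes derived from DNA transposons, whose proteins serve the host: Pogz and Pogk, derived from pogo-like elements, Cenpb and Jrk, from pogo or Tigger elements, the Zbed genes, from hAT elements, the Thap genes, from P-like elements, and Pgbd5, from piggyBac. Of 29 listed genes 27 were found and 25 were tested. Rag1 and Rag2, which cut antigen receptor genes in lymphocytes, averaged 0.53 and 0.11 normalised counts and fell below the filter. limma, edgeR and DESeq2 each called 0 of the 25 in the 3TC and age comparisons, with 3 and 2 genes at an unadjusted p under 0.05 in limma, against 9.44% and 21.0% of all features. Between old 3TC and old untreated muscle their median log2 change was -0.12, beside -0.16 for all features, and 22 lay below 0. Pogk averaged 1140 ± 132 counts in old 3TC muscle, against 1446 ± 208 in old untreated muscle (SD, n = 6 each), a log2 change of -0.34 ± 0.09 (SE, limma adjusted p = 0.519). Between old untreated and young untreated muscle the median was 0.07, beside 0.15. Cenpb, which codes for a centromere-binding protein, averaged 13630 ± 785 counts in old untreated muscle, against 12033 ± 1021 in young untreated muscle (SD, n = 6 each), a log2 change of 0.18 ± 0.07 (SE, limma adjusted p = 0.146).

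Nuclear-retained long RNAs were set beside the members because many transposon copies lie in introns. limma and edgeR called 0 of 9 in the 3TC and age comparisons. In limma 1 gene had an unadjusted p under 0.05 in each, against 9.44% and 21.0% of all features. DESeq2 called 1 in the age comparison, against 1.76% of all features. Their mean log2 level was 9.56 and 9.48 in young females 1 and 3, within the range of 8.68 to 10.2 of all libraries. Single genes went in both directions there. Kcnq1ot1 had its 2 highest values in young females 1 and 3, at 471 and 576 normalised counts, with 441 in old untreated male 1 next. Rian was highest in young female 3, at 1427. Miat had 16.1 and 3.28 counts in young females 1 and 3, the second its lowest value. Tissue markers fitted the label: the skeletal muscle list had a mean log2 level between 17.5 and 18.7 in every library. Liver and brain marker lists varied between libraries of the same arm, with mean log2 levels of 2.54 to 13.3 for liver and 3.74 to 9.51 for brain, and limma, edgeR and DESeq2 each called 0 genes of either list in the 3TC and age comparisons. All 13 tested brain markers lay below 0 in old 3TC against old untreated muscle, with a median log2 change of -1.46, beside -0.16 for all features, and 1 had an unadjusted p under 0.05 in limma. The mean log2 level of the brain list was 3.74 to 6.45 in old 3TC muscle, against 4.26 to 9.11 in old untreated muscle, and its part in the members' values was not tested.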

How the data were processed

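The deposited values were normalised counts, a signal that the authors had scaled to a common total of 74.0 M per library. The submitters' processing notes name STAR and mm10. How reads were assigned to subfamilies, and from which annotation, is not given in the sources used here. All values were whole multiples of 1 step per library (100% within 0.001 reads), so reads could be recovered. Rows with dates in place of gene symbols (27 rows, 0.0628 to 0.0831% of counts) were left out of the tests. Shares of all counts are over all rows, those with dates included, and sums of DNA transposon counts are over all members.

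Features with a mean of at least 10 over 18 libraries (17028) entered limma 3.58.1 (R 4.3.3; lmFit, trended eBayes) as log2(normalised count + 1); fold changes on this scale understate the change of low features. The model held arm and sex (14 residual degrees of freedom), or 6 groups by arm and sex (12). Calls needed an adjusted p (Benjamini-Hochberg, all features) under 0.05. edgeR 4.0.16 and DESeq2 1.42.0 on recovered reads were alternatives. Only the limma fit of arm and sex was tried on simulated counts, and only for the age comparison. Named members were those past the threshold, the 5 with the smallest p in each main comparison, the 10 with the highest mean, and the highest in each superfamily. Members and lists were chosen with earlier results of these data known. Errors of means are SDs between libraries. The labels do not state that each library is a separate animal, so p-values measure the spread between these libraries. The column of young untreated female 1 carries number 2 in its own name; arm and sex followed the labels.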

Additional observations from a re-analysis of the deposited data

Results flagged for a closer look

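In 11 of the 60 sets of 6 libraries examined (a named member in 1 arm), the highest or lowest library lay far from the other 5. The cutoff used is passed by chance in about 1 in 20 independent sets. These sets share libraries, and some members were named for their small p, so 11 of 60 cannot be set against that rate. In old untreated female 2, Charlie8 had 14996 normalised counts and Charlie17b 114. In young female 3, Tigger20a had 381 counts, Arthur1A 233, MER63D 881 and Charlie17b 128, each the highest of its arm. In young male 2, MER113 had 2315 counts and Arthur1C 828, each the lowest of its arm. MER5A had 4174 counts in old 3TC female 8. RCHARR1 had 1040 counts in old 3TC male 1, the lowest of that arm. Arthur1A had 41.0 counts in old untreated male 1.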

How the results depend on the processing

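In limma, 0 members were called in every comparison under 8 alternatives run in all of them: median-of-ratios scaling, quantile normalisation, scaling to the gene total, no filter, a mean of at least 50, no trend, and pseudocounts of 0.5 and 5. Members called between old untreated and young untreated females numbered 10 with scaling to the transposable-element total (74.8% of all features called), 46 with transposable elements tested alone (43.3% of those), 79 with array weights (17.6%), 21 with edgeR (2.07%) and 79 with DESeq2 (5.73%). DESeq2 also called 3 between old untreated and young untreated muscle, 12 between old 3TC and young muscle and 17 for the sex difference in age change, against 1.76%, 1.93% and 2.7% of all features. Array weights called 22 for 3TC in males (16.4% of all features) and 42 for that sex difference (3.66%). The tested members behind these counts include the 14 that passed the filter through young females 1 and 3 alone. Leaving out 1 library gave 0 to 89 called members and medians of -1.71 to -0.49 for age in females, and 0 to 52 and -1.94 to -0.72 for the sex difference; leaving out young female 8 gave the highest counts (7.89% and 2.98% of all features) and young female 3 the medians nearest 0.

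Scaled to the transposable-element total, members' medians were 0.21 for age, 0.16 for old 3TC against young, 0.30 for age in females and 0.21 for the sex difference. edgeR and DESeq2 both gave -1.59 for age in females. Without young females 1 and 3 they were 0.20, -0.059, 0.051 and -0.18 for the same 4 comparisons. With median-of-ratios scaling as well, a setting added after the data were seen, they were 0.077, -0.051, 0.00016 and -0.097.

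Samples sharing a replicate number did not all deviate together (correlations of -0.06 to 0.17). Samples with unlike numbers were not examined in this way, so whether the numbers pair samples was not settled. The main fits used no pairing. With a replicate block, which left 4 residual degrees of freedom, limma called 0 members in the 3 comparisons of arms. Only male 1 shared a sex and number between old 3TC and old untreated muscle. In this fit the rest of the 3TC contrast was linked through young libraries, young females 1 and 3 among them. Its values are therefore not a direct comparison of those arms. The 3TC median was 0.62, and the 3TC change of Charlie17b was 0.13, Charlie8 0.068, MER2 0.61, MER20 0.38, MER5B 0.38, RCHARR1 0.60, URR1A 0.19 and URR1B 0.49; the age change of Arthur1C was 0.098 and of Charlie8 -0.19.

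Signs of small changes turned in the most counted members, none of them called. Without young females 1 and 3, age changes were 0.13 for URR1B, 0.15 for URR1A, 0.11 for MER5A, 0.17 for MER20, 0.093 for MER2, 0.14 for MER5B, 0.24 for RCHARR1 and 0.057 for Arthur1C. With median-of-ratios scaling as well, they were 0.015 for URR1A, 0.037 for MER20, 0.0042 for MER5B and 0.10 for RCHARR1. Scaled to the transposable-element total, they were 0.31 for URR1B, 0.40 for URR1A, 0.25 for MER113, 0.39 for MER5A, 0.30 for MER20, 0.15 for MER2, 0.32 for MER5B, 0.16 for RCHARR1 and 0.57 for Arthur1C, and 3TC changes 0.070 for URR1B, 0.022 for MER20, 0.033 for MER2 and 0.051 for Arthur1C. The 3TC change of URR1B was 0.023 with edgeR, 0.024 with DESeq2 and 0.033 with median-of-ratios scaling, with or without young females 1 and 3. That of Arthur1C was 0.032 with edgeR, 0.030 with DESeq2, 0.046 with array weights, 0.015 with median-of-ratios scaling and 0.013 with quantile normalisation, and that of MER5A -0.051 with array weights. Leaving out 1 library gave age changes of -0.12 to 0.81 for Charlie8 (lowest without old untreated female 2) and -0.29 to 0.031 for Arthur1C, and 3TC changes of -0.13 to 0.15 for MER113, -0.11 to 0.092 for MER5A and -0.24 to 0.018 for Arthur1C. Causes were not tested beyond what each alternative leaves out.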
